A study of Mus musculus with 12 samples.

Results

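The genes of prostaglandin synthesis and breakdown were followed in mouse colonoids, organoids grown from colonic epithelial stem cells. The set was chosen by gene symbol and holds 9 of the 54532 genes measured: *Pla2g4a*, *Ptgs1*, *Ptgs2*, *Ptges*, *Ptges2*, *Ptges3*, *Ptger4*, *Slco2a1* and *Hpgd*. The series holds 12 poly-A RNA libraries in 4 groups of 3. The mice were young adults of the C57BL/6 background. Control colonoids came from *Hmox1* fl/fl mice, and colonoids labelled KO came from mice that carry floxed *Hmox1* together with Vil1 Cre, so both genotypes share the floxed allele. Vil1 drives Cre in the epithelium of the small and large intestine. Each genotype was given vehicle or 200 µM hemin, the ferric chloride form of heme, for 24 hours, in conditioned medium of L-WRN cells, which secrete Wnt3a, R-spondin and noggin. The genotype label of replicate 3 labelled KO with hemin reads *Hmox1* fl/fl /Vil1 Cre, and that of the other 5 libraries labelled KO reads *Hmox1* KO /Vil1 Cre. No label says that the replicates came from separate mice or cultures, so p-values measure only the spread between these libraries, which may be technical.

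*Hmox1*, which encodes the heme-degrading enzyme HO-1 and is the targeted gene, was lower in colonoids labelled KO than in control with vehicle but higher with hemin. In FPKM (fragments per kilobase of gene, scaled to the library) it read 7.62, 6.85 and 7.90 in control with vehicle and 3.14, 2.11 and 2.31 in colonoids labelled KO with vehicle. With hemin it read 503, 483 and 382 in control and 1279, 1393 and 1271 in those labelled KO. FPKM of a whole gene do not show whether the floxed part is in the transcript, so the genotype is written as labelled throughout. Fragments on genes ran from 11648801 to 25101868 per library, fewest in control with hemin. The RNA gene *Gm23935* took 16.8% to 29.0% of the summed FPKM in 1 library each of control with vehicle, control with hemin and KO with hemin. All 7 epithelial markers (*Epcam*, *Vil1* and others) were present, with summed FPKM of 5591 to 9843. Their levels differed between groups, and *Cdx2* was at 202 FPKM on average in control with vehicle and 204 with hemin. In KO it was at 48.7 with vehicle and 82.3 with hemin. Of 10 tuft cell, 8 fibroblast and smooth muscle and 4 endothelial markers none reached a mean of 1 FPKM in any group, and of 7 leukocyte markers only *Cd68* did. Of the listed markers, *Col1a2* and *Dcn* of fibroblasts and *Il25* of tuft cells were at 0 in all 12 libraries. The other tuft and fibroblast markers had fragments in at least 1 library. *Trpm5* of tuft cells had 54 in all in KO with vehicle, and *Pdgfra* of fibroblasts had 18 in control with vehicle.

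Prostaglandins are lipid signals made from arachidonic acid. A phospholipase releases the acid from membranes, a cyclooxygenase turns it into the unstable intermediate prostaglandin H2, and terminal synthases turn that into prostaglandin E2 and its relatives. Prostaglandin E2 acts on G protein-coupled receptors at the cell surface, is taken up by a transporter and is inactivated inside the cell by a dehydrogenase. In the colon it is known for its part in crypt renewal and wound repair, and cyclooxygenase-2 and the dehydrogenase are known to move in opposite directions in colorectal tumors. *Ptgs2* is also widely used as a marker of ferroptosis, the iron-dependent form of cell death.

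The genes lie on chromosomes 1, 2, 8, 9, 10 and 15 of mm10, and all are protein-coding. *Pla2g4a* (1:149829618-149961290, minus strand, 18 exons) and *Ptgs2* (1:150100031-150108227, plus strand, 10 exons) are neighbors with their starts facing each other and 138740 bases between them. *Hpgd* lies at 8:56294585-56321043 on the plus strand with 7 exons, and *Slco2a1* at 9:102988712-103096002 on the plus strand with 14 exons. The promoter windows below, from 250 bases before to 50 bases after the RefSeq start on GRCm38.p6, are shown because these 4 genes passed both thresholds of the test in at least 1 comparison. The windows are chr1:150099781-150100080 for *Ptgs2*, chr8:56294302-56294601 for *Hpgd* and chr9:103008237-103008536 for *Slco2a1* on the plus strand, and chr1:149961241-149961540 on the minus strand for the first of the 2 windows of *Pla2g4a*. Capitals mark matches on either strand to the cAMP response element half-site TGACG, the E-box CACGTG, the C/EBP palindrome TTGCGCAA, the TATA box TATAAA and the antioxidant response element core TGACNNNGC.
Ptgs2: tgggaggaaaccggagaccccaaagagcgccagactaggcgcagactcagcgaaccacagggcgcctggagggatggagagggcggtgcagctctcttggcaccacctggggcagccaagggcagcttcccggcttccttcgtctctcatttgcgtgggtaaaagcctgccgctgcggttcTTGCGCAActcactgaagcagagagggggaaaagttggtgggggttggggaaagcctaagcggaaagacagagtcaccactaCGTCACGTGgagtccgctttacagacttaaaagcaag
Hpgd: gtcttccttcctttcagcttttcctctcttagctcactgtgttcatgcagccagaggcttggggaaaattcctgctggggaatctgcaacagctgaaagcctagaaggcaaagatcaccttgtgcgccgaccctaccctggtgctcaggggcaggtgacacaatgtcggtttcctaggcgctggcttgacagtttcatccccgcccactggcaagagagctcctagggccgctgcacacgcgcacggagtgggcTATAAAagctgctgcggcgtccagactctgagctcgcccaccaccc
Slco2a1: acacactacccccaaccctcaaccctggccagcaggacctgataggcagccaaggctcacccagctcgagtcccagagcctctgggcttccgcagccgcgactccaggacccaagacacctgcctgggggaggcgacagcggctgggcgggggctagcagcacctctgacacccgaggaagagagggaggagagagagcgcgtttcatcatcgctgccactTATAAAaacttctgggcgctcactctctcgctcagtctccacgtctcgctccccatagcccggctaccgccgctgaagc
Pla2g4a: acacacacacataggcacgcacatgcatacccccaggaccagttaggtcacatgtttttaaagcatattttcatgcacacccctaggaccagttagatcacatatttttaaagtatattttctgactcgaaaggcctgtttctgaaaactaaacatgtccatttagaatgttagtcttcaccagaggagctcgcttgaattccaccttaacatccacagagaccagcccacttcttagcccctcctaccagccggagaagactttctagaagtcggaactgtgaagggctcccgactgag
The *Ptgs2* window held a C/EBP match from -69 to -62, which 0.183% of 32851 promoter windows hold. It also held a half-site on the minus strand from 14 to 18 that overlaps an E-box from 17 to 22, motifs found in 20.8% and 7.15% of windows. The TATA box, found in 13.6% of windows, lay at 5 to 10 in *Hpgd* and at -29 to -24 in *Slco2a1*. Neither window of *Pla2g4a* held a match other than a TATA box on the minus strand of the second window. The antioxidant core, found in 12.4% of windows, matched only *Ptges3* among the 9 genes. Positions count from the RefSeq start, which for *Hpgd* and *Slco2a1* is not the start in the deposited table and need not be the start used in colonoids, and a match is not a bound site.

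*Ptges3* and *Hpgd* were the most abundant members per length, with group means of 42.5 to 57.3 FPKM and 22.6 to 83.5 FPKM. *Pla2g4a* lay at 3.52 to 15.6, *Ptges2* at 4.62 to 6.87, *Ptger4* at 3.38 to 5.20 and *Slco2a1* at 0.719 to 4.58. *Ptgs2* was under 1 in 3 groups and at 13.5 in the fourth, and *Ptges* and *Ptgs1* were under 1 in all groups. The 7 members other than *Ptgs1* and *Ptges* had at least 1 FPKM in at least 3 libraries and were tested with limma on log2(FPKM + 1) among 12740 genes. *Ptgs2* passed that filter only through the hemin-treated colonoids labelled KO, so it had to differ there, and counts over the 7 members are a description. A gene was called at a Benjamini-Hochberg adjusted p under 0.05 and an absolute log2 difference above 1, and "higher" or "lower" with an adjusted p and no call means that only the first held.

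**Figure D1:**
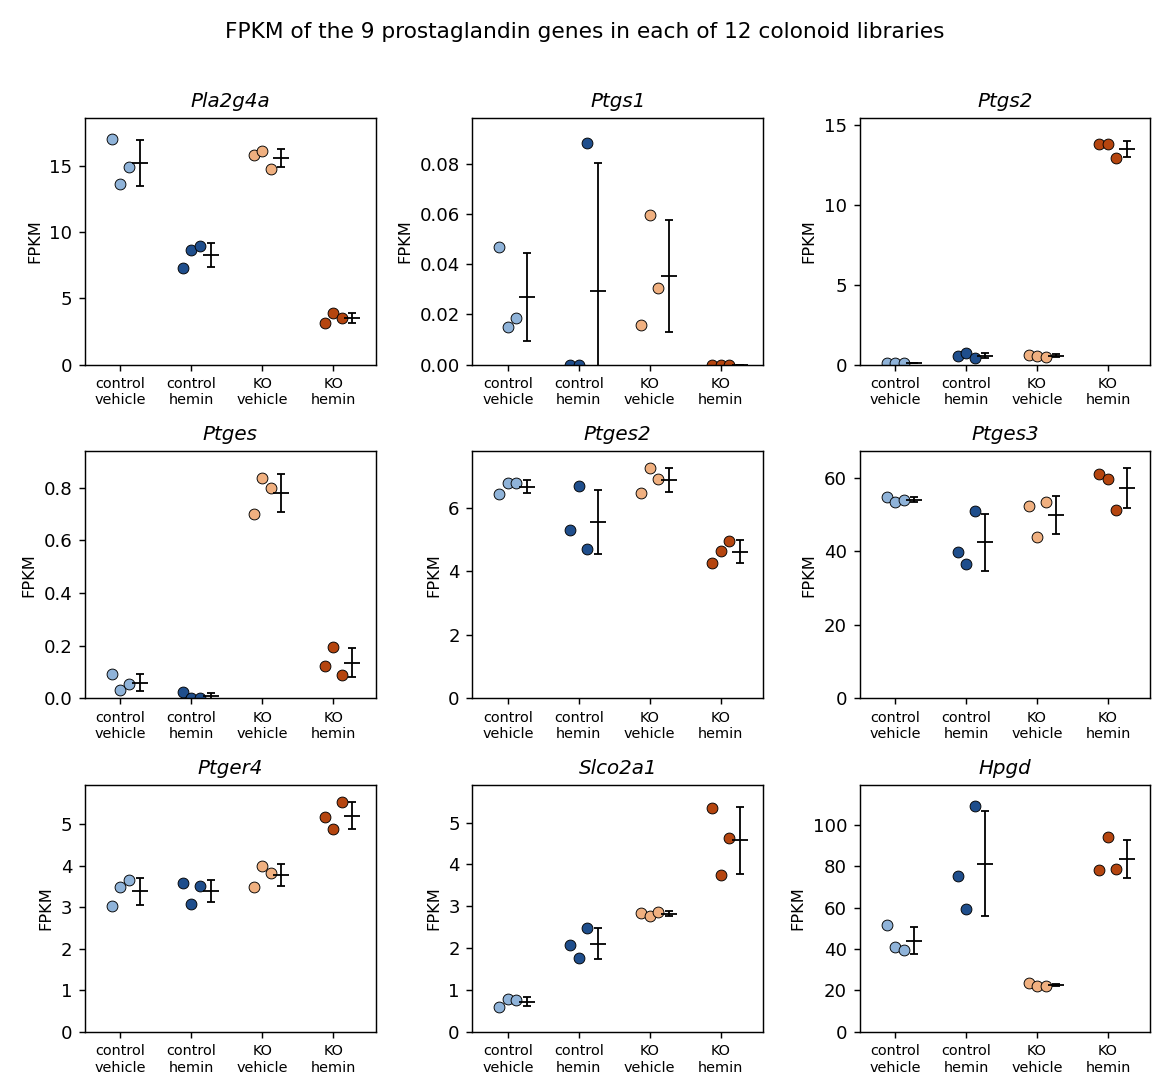
FPKM (linear axis, from 0) of each member in the 12 libraries, with 1 point per library, colored by group, and the mean with its SD as a bar beside the points (lower ends are cut at 0). *Ptgs2* is at 12.9 to 13.8 in the 3 libraries labelled KO with hemin and under 1 in the other 9, *Pla2g4a* is lower with hemin in both genotypes, and *Hpgd* is higher with hemin in both.

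*Pla2g4a* encodes cytosolic phospholipase A2, which releases arachidonic acid from membrane phospholipids. It fell with hemin in colonoids labelled KO and was lower with hemin in control. It read 17.0, 13.6 and 14.9 FPKM in control with vehicle and 7.26, 8.63 and 8.93 with hemin. In colonoids labelled KO it read 15.8, 16.1 and 14.8 with vehicle and 3.16, 3.86 and 3.53 with hemin. The vehicle libraries of the 2 genotypes overlapped, the hemin libraries lay below all vehicle libraries, and the hemin libraries labelled KO lay below those of control. The log2 difference with hemin was -0.80 ± 0.10 (SE) in control, adjusted p = 5.4e-05, and -1.88 in colonoids labelled KO, adjusted p = 5.7e-08. The difference of these responses, the interaction, was -1.08 (95% interval -1.38 to -0.77), adjusted p = 0.00025. Between the genotypes under vehicle the difference was 0.04 (-0.17 to 0.26), adjusted p = 0.79. Under hemin it was -1.03, adjusted p = 1.1e-05, a call that fell just under the fold threshold without control replicate 3 with hemin (-0.98) and without KO replicate 1 with hemin (-0.98).

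The cyclooxygenases are the committed step, *Ptgs1* the housekeeping form and *Ptgs2* the inducible form. *Ptgs2* rose with hemin in colonoids labelled KO, from 0.628, 0.568 and 0.467 FPKM to 13.8, 13.8 and 12.9. In control it was 0.106, 0.102 and 0.127 with vehicle and 0.555, 0.739 and 0.411 with hemin. All 3 KO hemin libraries lay far above the other 9, and the control hemin and KO vehicle libraries overlapped between those and control with vehicle. These values rest on 8 fragments in each control vehicle library, 22 to 40 in control with hemin, 36 to 47 in KO with vehicle and 851 to 1487 in KO with hemin. Mean FPKM was 24.4-fold higher with hemin in colonoids labelled KO and 5.09-fold higher in control. On the log2(FPKM + 1) scale, which understates changes of low genes, the differences were 3.23 ± 0.09 (adjusted p = 4.3e-10) and 0.49 (adjusted p = 0.00077), and the interaction was 2.73 (2.46 to 3.01), adjusted p = 2.3e-07. Between genotypes it was 0.48 under vehicle (adjusted p = 0.0013) and rose by 3.22 under hemin (adjusted p = 4.9e-10), or 4.96-fold and 23.8-fold in mean FPKM. The fragments of *Ptgs2* in KO with vehicle were 5.00 times those in control per library size (exact 95% interval 3.22 to 8.09, counting error only). With limma-voom on the fragments, which keeps the low range, the log2 response to hemin was 2.26 in control and 4.61 in colonoids labelled KO, both called, and the interaction was 2.35 (1.47 to 3.22), adjusted p = 0.0011. The antisense gene *Ptgs2os* next to *Ptgs2* had 0 to 2 fragments per library. The summed fibroblast markers, which mark a main source of *Ptgs2* in whole tissue, were 0 to 0.0911 FPKM in KO with hemin and 0.0113 to 0.174 in control with hemin. The leukocyte marker *Cd68* moved with *Ptgs2* in colonoids labelled KO, from 0.973, 1.47 and 0.756 FPKM to 2.87, 3.85 and 3.88 (log2 1.14, adjusted p = 0.0018). In control it read 4.003, 2.19 and 1.97 with vehicle and 5.16, 3.83 and 2.45 with hemin (0.37, adjusted p = 0.23), so the KO hemin libraries lay within the range of control. The other 6 leukocyte markers were under the filter, at most 0.211 FPKM in any library (*Lyz2*), and *Ptprc*, which marks all leukocytes, was at most 0.0190. The 7 together summed to 0.853 to 1.80 FPKM in KO with vehicle, 3.23 to 4.03 in KO with hemin, 2.12 to 4.26 in control with vehicle and 2.46 to 5.20 in control with hemin, and their part in the *Ptgs2* result was not tested.

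*Ptgs1* had 16 fragments in all: 3, 1 and 1 in control with vehicle, 0, 0 and 4 in control with hemin, 1, 4 and 2 in KO with vehicle, and none in the 3 libraries of KO with hemin. A count of 0 allows up to 3 fragments, or 0.0328 to 0.0538 FPKM in those 3 libraries, and every other library but 2 was at or under 3 fragments. In the fit on log2(FPKM + 1) with no filter the adjusted p of *Ptgs1* was 0.34 or above in every comparison. In the limma-voom fit with the lower bar of 10 fragments in total, added after the data were seen, hemin in KO passed both thresholds (adjusted p = 0.039) on 7 fragments against 0, and the other 4 comparisons had adjusted p of 0.26 or above. The size of that difference depends on the prior count and no fold is given. Tuft cells are the known epithelial home of *Ptgs1*, and the 10 tuft markers summed to 0.242 to 1.13 FPKM per library.

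The last step to prostaglandin E2 is made by 3 synthases. *Ptges*, the inducible membrane form often paired with cyclooxygenase-2, had 6, 2 and 3 fragments in control with vehicle and 45, 57 and 53 in KO with vehicle. With hemin it had 1, 0 and 0 fragments in control and 7, 18 and 5 in KO. The KO vehicle libraries lay above all others, at 0.700 to 0.839 FPKM, and the KO hemin libraries, where *Ptgs2* was highest, were at 0.0886 to 0.195. *Ptges* was under the filter for the test on FPKM. In the added limma-voom fit it was higher in KO than control under vehicle by 3.67 on the log2 scale (adjusted p = 1.3e-05) and lower with hemin in KO, at -2.45 (adjusted p = 3.6e-05). Per library size the ratio of KO to control was 13.2 under vehicle (exact 95% interval 7.18 to 27.02). Under hemin it was 20.04 (3.33 to 817), from 30 fragments against 1. In control the response to hemin had an adjusted p of 0.054. In TPM (FPKM rescaled to the same sum in each library) *Ptges* passed the filter only through KO with vehicle, so it had to differ there, and its TPM differences of 1.62 under vehicle (adjusted p = 3.1e-05) and -1.42 with hemin in KO (adjusted p = 5.8e-05) are a description. With no filter on log2(FPKM + 1) the same differences were 0.75 and -0.65, past the adjusted p alone. The interaction depended on the scale, at -1.22 in TPM (adjusted p = 0.014) and -0.47 in the added limma-voom fit (-2.26 to 1.31, adjusted p = 0.78).

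*Ptges2*, a second membrane-associated form, read 6.42, 6.78 and 6.79 FPKM in control with vehicle, 5.30, 6.67 and 4.70 in control with hemin, 6.47, 7.24 and 6.89 in KO with vehicle and 4.24, 4.65 and 4.96 in KO with hemin. It was lower with hemin in KO, where the groups did not overlap, by a log2 difference of -0.49 (adjusted p = 0.0015), and in control the difference was -0.24 (adjusted p = 0.072). *Ptges3*, the cytosolic form also known as the HSP90 co-chaperone p23, read 54.7, 53.6 and 54.1 in control with vehicle and 39.7, 36.5 and 51.1 with hemin. In KO it read 52.2, 43.9 and 53.4 with vehicle and 61.1, 59.6 and 51.2 with hemin. Its log2 difference was -0.36 with hemin in control (adjusted p = 0.030), 0.20 with hemin in KO (adjusted p = 0.18) and 0.43 between genotypes under hemin (adjusted p = 0.017). Its interaction of 0.56 (adjusted p = 0.037) kept an adjusted p under 0.05 only without control replicate 3 with hemin, KO replicate 3 with vehicle or KO replicate 3 with hemin. With single libraries left out the adjusted p ranged from 0.0013 to 0.10 for hemin in control and from 0.00077 to 0.065 for the genotypes under hemin. Over all alternatives it reached 0.17 for the genotypes under hemin and 0.47 for the interaction. The difference with hemin in KO ran from -0.14 to 0.21 in the alternatives that kept all libraries of the groups compared. The pseudogene *Ptges3-ps*, at 68.8 to 80.6 FPKM on average, can share reads with *Ptges3*, so how reads were split between them is uncertain.

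*Ptger4* encodes the prostaglandin E2 receptor EP4, which raises cAMP. It read 3.02, 3.48 and 3.66 FPKM in control with vehicle, 3.57, 3.08 and 3.52 with hemin, 3.50, 3.99 and 3.83 in KO with vehicle and 5.17, 4.88 and 5.54 with hemin. The KO hemin libraries lay above the other 9, which overlapped. *Ptger4* was higher with hemin in KO by 0.38 (adjusted p = 0.0019) and higher in KO than control under hemin by 0.50 (adjusted p = 0.00061). In control the response was 0.00 (-0.17 to 0.18), and the interaction was 0.37, adjusted p = 0.035. Leaving out single libraries, the interaction kept an adjusted p under 0.05 only without control replicate 1 with vehicle, control replicates 1 or 3 with hemin, KO replicate 2 with vehicle or KO replicate 2 with hemin. In TPM the adjusted p was 0.66 for hemin in KO, 0.058 for the genotypes under hemin and 0.62 for the interaction. *Ptger4* shares 11676 bases with *Ttc33* on the opposite strand, and the sources do not settle whether strand was used in counting. *Ttc33* differed between the genotypes under hemin by -0.37, adjusted p = 0.024.

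*Slco2a1* encodes the transporter that takes prostaglandins into the cell for breakdown. It was higher in KO than control with either treatment and higher with hemin in either genotype. It read 0.600, 0.795 and 0.763 FPKM in control with vehicle, 2.07, 1.76 and 2.48 in control with hemin, 2.85, 2.76 and 2.86 in KO with vehicle and 5.35, 3.75 and 4.64 in KO with hemin. The 4 groups did not overlap and held that order. It rose in KO under vehicle by 1.16 ± 0.11 (adjusted p = 1.5e-05), or 3.93-fold in mean FPKM. With hemin the log2 difference was 0.85 in control (adjusted p = 0.00012) and 0.54 in KO (adjusted p = 0.0020), and KO over control under hemin was 0.84 (adjusted p = 0.00019). In the added limma-voom fit the response in control (1.55) and KO over control under hemin (1.10) passed both thresholds too, and the response in KO was 0.67. The interaction was -0.31, adjusted p = 0.20, on log2(FPKM + 1) and -0.88, adjusted p = 0.017, in the added limma-voom fit. In TPM the response in KO was 0.32, adjusted p = 0.28.

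*Hpgd* encodes the NAD-dependent dehydrogenase that inactivates prostaglandin E2. It rose with hemin in colonoids labelled KO from a baseline that was lower than in control, to values that overlapped those of control with hemin. It read 51.4, 41.1 and 39.6 FPKM in control with vehicle and 23.4, 22.3 and 22.1 in KO with vehicle. With hemin it read 75.1, 59.4 and 109 in control and 78.0, 94.2 and 78.4 in KO. The 3 levels, KO with vehicle, control with vehicle and both hemin groups together, did not overlap, and the hemin groups overlapped each other. The log2 difference with hemin was 0.83 in control (adjusted p = 0.0031) and 1.84 ± 0.18 in KO (adjusted p = 7.9e-06). Between the genotypes it was -0.92 under vehicle (adjusted p = 0.0025) and 0.08 under hemin (-0.33 to 0.49), adjusted p = 0.78. The interaction of 1.00 (0.43 to 1.58), adjusted p = 0.018, was on the fold threshold. It fell under it without control replicate 1 with vehicle (0.89), control replicates 1 (0.97) or 2 (0.80) with hemin, KO replicates 2 (0.99) or 3 (0.99) with vehicle, or KO replicate 2 with hemin (0.91), and in TPM it was 0.88, adjusted p = 0.11. Without control replicate 2 with hemin the response in control was 1.03 and passed both thresholds. *Gm45540*, which overlaps *Hpgd* on the same strand, stayed under 1 FPKM.

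**Figure D2:**
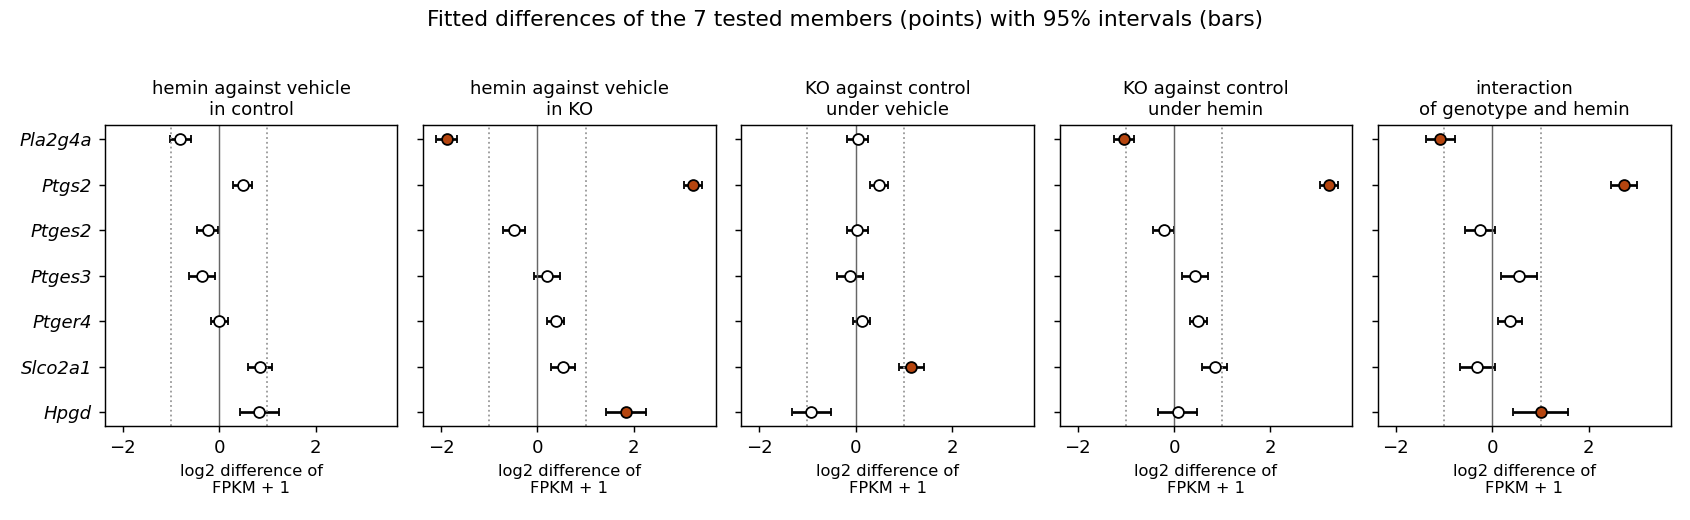
Fitted log2 differences of FPKM + 1 (points) with 95% intervals (bars) for the 7 tested members in the 5 comparisons. Filled points passed both thresholds, and dotted lines mark an absolute log2 difference of 1. *Ptgs2* is furthest right for hemin in KO, for KO against control under hemin and for the interaction, and *Pla2g4a* is furthest left in the same 3 panels.

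Set against all genes, hemin in control called 0 of the 7 members, where 2.17% of the 12740 genes rose and 5.93% fell. Hemin in KO called 2 that rose (*Ptgs2* and *Hpgd*) and 1 that fell (*Pla2g4a*), against 4.87% and 8.07% of all genes. Between the genotypes under vehicle *Slco2a1* rose and none fell, against 3.53% and 3.27%. Under hemin *Ptgs2* rose and *Pla2g4a* fell, against 3.1% and 2.91%. The interaction called *Ptgs2* and *Hpgd* upward and *Pla2g4a* downward, against 2.57% and 2.56%. By adjusted p alone 5 of 7 passed with hemin in control, where 49.9% of all genes did, and 6 of 7 in KO, where 60.4% did. The counts were 3 of 7 under vehicle (34.2% of all genes), 5 of 7 under hemin (34.4%) and 5 of 7 for the interaction (23.8%). A difference past the adjusted p alone was thus common among all genes. Comparisons that share libraries are not independent of each other.

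The 2 ends of the pathway, synthesis by *Ptgs2* and inactivation by *Hpgd*, were set side by side in each library. The ratio of *Hpgd* to *Ptgs2* FPKM was 399 ± 86.9 (SD, n = 3) in control with vehicle, 160 ± 95.1 in control with hemin, 41.3 ± 5.33 in KO with vehicle and 6.17 ± 0.604 in KO with hemin. The control groups were 311 to 485 and 80.5 to 266, and none of the 4 groups overlapped in this ratio. *Hpgd* messages thus outnumbered *Ptgs2* messages per length in all 12 libraries.

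**Figure D3:**
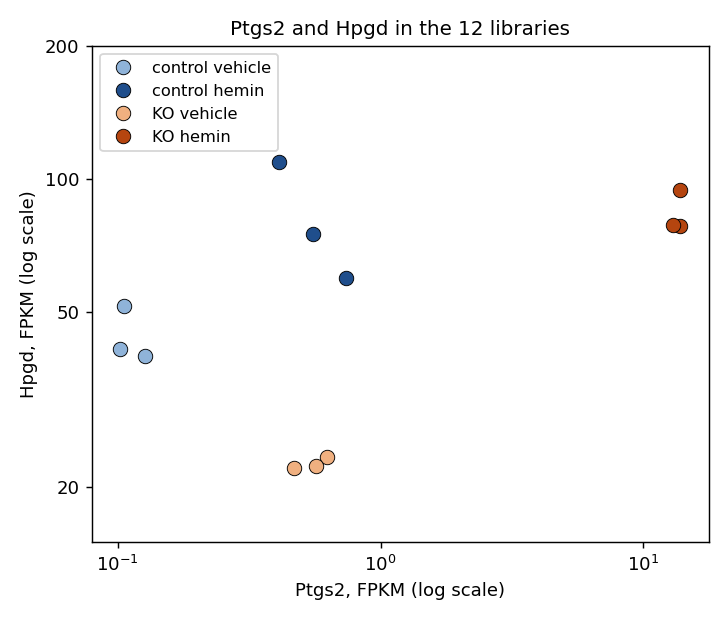
*Ptgs2* (x) against *Hpgd* (y) in FPKM, both on log axes, with 1 point per library, colored by group. KO with hemin stands apart along *Ptgs2* at 12.9 to 13.8, and the hemin groups share the same range of *Hpgd*, 59.4 to 109 and 78.0 to 94.2.

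Shifts in cell state moved beside these results, and their part in them was not tested. The 8 colonocyte markers summed to 3205 to 3452 FPKM in control with vehicle, 5575 to 8330 in control with hemin, 2245 to 2296 in KO with vehicle and 4158 to 4967 in KO with hemin. *Car1* alone made up 57.1% to 76.2% of that sum across the 12 libraries. The sum was higher with hemin in each genotype, as *Hpgd* was, and so was that of the other 7 markers, at 1186 to 1239 and 1592 to 1979 in control and 946 to 980 and 1487 to 1893 in KO. Single markers did not move together. Under vehicle the sum was lower in KO than in control, yet 3 of the 8 markers rose in KO and 1 fell. *Car4* (1.87 to 58.0 FPKM on average), *Aqp8* (44.0 to 426) and *Slc26a3* (14.6 to 37.8) rose. *Guca2a* fell (499 to 84.3), and 3.53% of all genes rose and 3.27% fell. With hemin in control *Car1* rose (1.18) and *Aqp8* fell, from 44.0 to 10.3 FPKM on average, where 2.17% and 5.93% of all genes did. By adjusted p alone 4 of the 8 were higher and 3 lower, against 23.2% and 26.7% of all genes. With hemin in KO, *Krt20*, *Car1* and *Ceacam1* rose and *Car4* and *Guca2a* fell, where 4.87% and 8.07% of all genes did. The 5 stem and progenitor markers summed to 11.5 to 13.2 in control with vehicle, 4.81 to 6.74 in control with hemin, 26.7 to 28.8 in KO with vehicle and 9.19 to 11.9 in KO with hemin. Fewer cells of a type and less RNA per cell cannot be told apart in these bulk libraries.

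The rest of the eicosanoid pathway is described by lists of genes. Of 15 other phospholipase and re-acylation genes 10 were tested, and with hemin in KO 1 rose and 3 fell, where 4.87% and 8.07% of all genes did. The median log2 difference was -0.12, against 0.00 over all genes tested. In KO over control 3 rose under vehicle and 1 under hemin, against 3.53% and 3.1% of all genes. *Pla2g2f*, a secreted phospholipase, was at 23.6 ± 1.84 FPKM (SD, n = 3) in KO with vehicle and at 0.0583 to 0.228 on average in the other 3 groups. *Pla2g5*, another secreted form, was at 2.22 ± 0.387 in KO with vehicle and at 0.179 to 0.476 in the others. Both genes passed the filter only through KO with vehicle, so they had to differ there, and their values and their part in these counts are a description. Without both the median with hemin in KO was 0.09, and 1 of the remaining 8 rose and 1 fell. *Pla2g10* fell with hemin in control (24.8 to 8.98 FPKM, log2 -1.37) and rose in KO over control with vehicle (1.29) and with hemin (2.11). *Pla2g16* fell by 1.21 and *Lpcat3*, which returns arachidonate to phospholipids, rose by 1.22 with hemin in KO.

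Of 11 other prostanoid synthases 7 were tested, and 4 of them rose and 1 fell with hemin in KO (4.87% and 8.07% of all genes), with a median log2 difference of 1.74 against 0.00 over all genes. In control 3 rose and 1 fell (2.17% and 5.93% of all genes), with a median of 0.45 against -0.01. The carbonyl reductases *Cbr1* and *Cbr3* and the aldo-keto reductases *Akr1b7* and *Akr1b8* rose in KO, and *Cbr2* fell. *Akr1b7* passed the filter only through KO with hemin, so it had to differ there, and the count and median that hold it are a description. Without it 3 of 6 rose and 1 fell with hemin in KO, with a median of 0.90, and the median in control was 0.57. These reductases act on prostaglandins among many other carbonyl substrates. *Akr1b8* went from 39.3 to 478 FPKM in KO and from 85.6 to 323 in control, log2 3.57 and 1.90, with an interaction of 1.67 (adjusted p = 1.8e-06). *Cbr3* went from 21.5 to 231 in KO and from 29.2 to 99.0 in control, with an interaction of 1.63 (adjusted p = 0.00021). *Cbr2* fell in both genotypes, from 123 to 1.08 in control and from 146 to 0.763 in KO, log2 -5.91 and -6.42. *Hpgds*, *Ptgds*, *Ptgis* and *Tbxas1*, which make the other prostanoid classes, were not tested and stayed at or under 0.692 FPKM in every library.

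None of the 8 other prostanoid receptors was tested. The highest value was 0.722 FPKM, for *Ptger3* in KO with vehicle, and *Ptger2* was at 0 in all 12 libraries, so *Ptger4* was the one prostaglandin E2 receptor above 1 FPKM. The 4 genes of export and further breakdown had a median log2 difference of 0.72 with hemin in KO and 0.46 in control, against -0.0019 and -0.01 over all genes tested. *Abcc4*, an exporter of prostaglandins, rose with hemin in KO from 14.6 to 70.3 FPKM (log2 2.19, adjusted p = 4.4e-10) and went from 16.1 to 33.1 in control, with an interaction of 1.20 (adjusted p = 4.6e-06). *Ptgr1*, which reduces the product of *Hpgd* further, rose in KO over control with vehicle (1.16) and with hemin (1.40), where 3.53% and 3.1% of all genes did. Of 10 genes of the lipoxygenase and epoxide branch 3 were tested, with a median of 0.53 with hemin in KO against -0.0019 over all genes tested. The epoxide hydrolases *Ephx1* (1.31) and *Ephx2* (1.41) rose in KO over control under hemin, where 3.1% of all genes did.

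**Figure D4:**
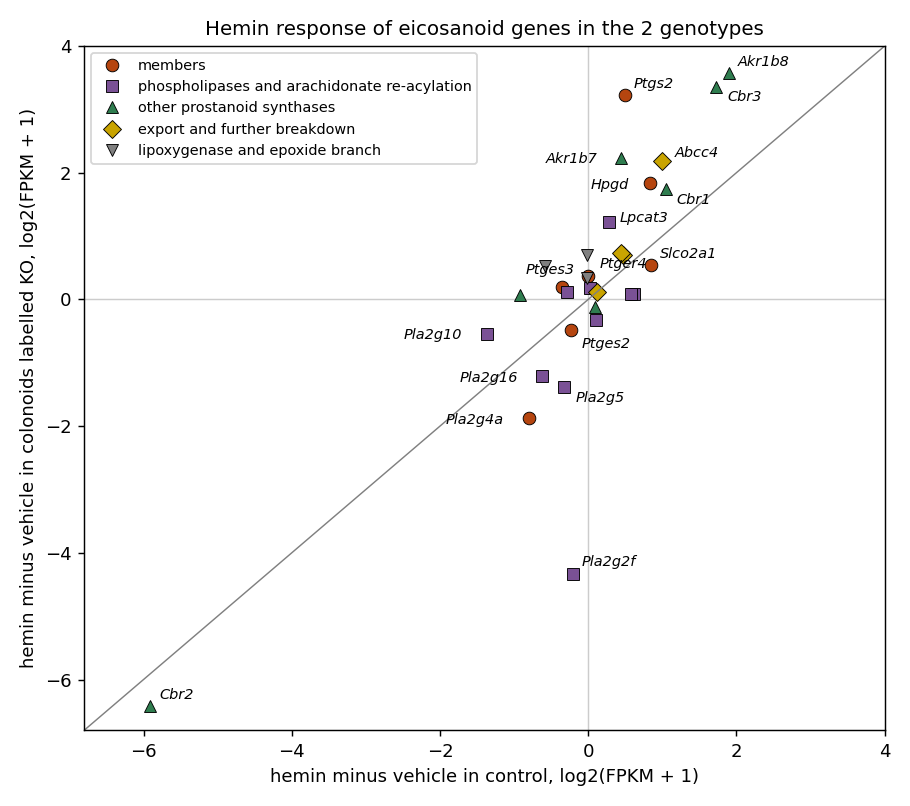
Log2 response to hemin in control (x) against that in colonoids labelled KO (y) for the 7 tested members and the tested genes of 4 eicosanoid lists, with the line of equal response. Named points are the members and genes past an absolute log2 difference of 1 on either axis. *Ptgs2* lies at 0.49 and 3.23 and *Pla2g2f* near 0 in control and at -4.33 in KO, both far from the line, and *Cbr2* lies near the line at -5.91 and -6.42.

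Lists of cAMP response genes and of RNA-binding factors stood beside the pathway. Of 9 tested genes that respond to cAMP and CREB, the signal raised by EP4, *Areg* rose and *Nr4a1* fell with hemin in KO (1.11 and -1.85), where 4.87% of all genes rose and 8.07% fell. By adjusted p alone 4 were higher and 1 lower in KO (median 0.10), and in control 5 were lower and none higher (median -0.58, against -0.01 over all genes tested). By that rule 29.9% of all genes were higher and 30.4% lower in KO, and 23.2% and 26.7% in control. *Crem* passed the filter only through libraries with hemin, and without it the medians were 0.0087 and -0.66. *Areg*, *Fos* and *Dusp1* were called upward in the interaction (1.92, 1.43 and 1.14), where 2.57% of all genes were, with differing responses behind it. *Dusp1* fell with hemin in control, from 12.8 to 4.86 FPKM on average (log2 -1.23, adjusted p = 1.8e-05), and went from 10.96 to 10.4 in KO (adjusted p = 0.58). *Fos* was lower with hemin in control, 38.5 to 25.8 (adjusted p = 0.0023), and higher in KO, 20.8 to 38.4 (adjusted p = 0.00011). *Areg* read 134, 75.8, 55.5 and 121 FPKM on average in control with vehicle, control with hemin, KO with vehicle and KO with hemin. Of 7 tested factors that bind AU-rich elements, which lie in many unstable messages including that of *Ptgs2*, *Zfp36* rose (1.32) and *Rbm3* fell (-1.33) with hemin in KO, where the same 4.87% and 8.07% of all genes did. By adjusted p alone 5 of the 7 were lower and 1 higher in KO (median -0.40), and 6 were lower and none higher in control (median -0.55), against -0.0019 and -0.01 over all genes tested. The shares of all genes by that rule were again 30.4% lower and 29.9% higher in KO, and 26.7% and 23.2% in control. None was called between the genotypes under vehicle (3.53% of all genes higher and 3.27% lower) or under hemin (3.1% and 2.91%).

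The genes whose log2(FPKM + 1) followed *Ptgs2* most closely over the 12 libraries were *Gpr137b*, *Mt3*, *Abcc2*, *Dusp6* and *Akr1b7*, with Pearson r of 0.988 to 0.995. Each had its highest mean in KO with hemin (35.7, 39.9, 2.76, 74.8 and 7.76 FPKM), and that 1 group of 3 libraries sets these correlations. *Hspa4l*, *Rnf14*, *Slc44a1*, *Prkaa1* and *Adam10* followed *Hpgd*, with r of 0.988 to 0.993, and each was lowest in KO with vehicle (4.99, 17.6, 58.5, 12.5 and 30.8 FPKM). The values share libraries and depth, and the likeness is a description.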

How the data were processed

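RNA of 12 colonoid libraries was purified as poly-A mRNA, and Novogene prepared, sequenced and processed them. The authors deposited 1 table of FPKM for 54532 genes with coordinates and gene lengths. The submitters' processing notes name fastp, HISAT2 2.0.5, featureCounts 1.5.0-p3 and mm10. Whether strand was used in counting is not given in the sources used here. Multiplied by gene length, 100% of the deposited FPKM were whole multiples of 1 fragment (tolerance 0.01), so fragments were recovered for depth, for floors of 3 fragments and for limma-voom. Intervals and floors cover counting error only.

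Groups came from the sample titles. The test was limma 3.58.1 in R 4.3.3 on log2(FPKM + 1), over all 12 libraries with group means, an intensity trend and no block. It took the 12740 genes that reached 1 FPKM in 3 or more libraries, and p-values were adjusted by Benjamini-Hochberg over all of them. The script was tested on simulated data. Figures and sequence matches used Python 3.11.15, pandas 2.3.3, scipy 1.17.1 and matplotlib 3.10.9. The coordinates of all 9 members equal those of GENCODE M21. The named genes are the 9 members, *Hmox1*, the 5 genes most correlated with *Ptgs2* and with *Hpgd*, called genes of the pathway lists, and markers; *Ptges3-ps*, *Ttc33*, *Gm45540*, *Ptgs2os* and *Gm23935*, and genes named as not tested, were chosen after their values were seen. The members and lists were chosen with earlier results of these data known. Alternatives were another pseudocount, other filters, TPM with and without the most abundant gene, a replicate block, no trend in the moderation, a fit of the compared groups alone, calls by adjusted p alone, limma-voom, and leaving out single libraries. Raw reads were not used here.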

Additional observations from a re-analysis of the deposited data

Results flagged for a closer look

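The response to hemin differed between the genotypes, by the interaction term of limma, for 3 of the 7 tested members by both thresholds (2 higher and 1 lower), against 2.57% and 2.56% of all genes, and for 5 of 7 by adjusted p alone, against 23.8%. *Ptgs2* passed the filter only through KO with hemin and so had to differ there. For *Ptgs2* the interaction was 2.73 on the log2(FPKM + 1) scale, with mean FPKM 24.4-fold higher with hemin in colonoids labelled KO and 5.09-fold higher in control. For *Pla2g4a* it was -1.08, with hemin below vehicle in all 3 libraries of each genotype. For *Hpgd* it was 1.00, on the fold threshold, with baselines of 44.0 FPKM in control and 22.6 in KO and hemin levels of 81.2 and 83.5. All 3 rest on colonoids in which whole-gene *Hmox1* FPKM under hemin was higher in those labelled KO than in control. Such FPKM do not show whether the floxed part is in the transcript.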

How the results depend on the processing

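For 35 pairs of member and comparison, 748 alternative values were computed: 696 stayed on the same side of the adjusted p of 0.05, 44 lost it, 8 gained it and no called value changed sign. *Ptgs2* in KO hemin, in the genotypes under hemin and in the interaction, *Hpgd* and *Pla2g4a* with hemin in KO, *Slco2a1* under vehicle and the *Pla2g4a* interaction stayed called under every alternative that tested them. *Ptgs2* passed the main filter only through KO with hemin and so had to differ there, and its place among these is a description. The *Hpgd* interaction was lost in TPM (0.88, adjusted p = 0.11) and, by the fold threshold alone, in TPM without the most abundant gene (0.90, adjusted p = 0.031), with leave-one-out values of 0.80 to 1.23. Members called with hemin in control went from 0 to 5 by adjusted p alone, 2 with a pseudocount of 0.1, 2 in TPM, 1 in TPM without the most abundant gene, 2 with limma-voom and 2 with the limma-voom fit added later, and ranged from 0 to 1 leaving out 1 library. With hemin in KO they went from 3 to 6 by adjusted p alone and 5 in the added fit, which adds *Ptges* and *Ptgs1*. Under vehicle they went from 1 to 3 by adjusted p alone, 2 with a pseudocount of 0.1, 0 at a mean FPKM of at least 5 (which removes *Slco2a1*), 3 in TPM and 3 without the most abundant gene, 2 with limma-voom and 3 in the added fit. The TPM counts under vehicle and with hemin in KO (4) include *Ptges*, as does that of the interaction, and it passed the TPM filter only through KO with vehicle. Under hemin they went from 2 to 5 by adjusted p alone, 1 at a mean of at least 5 and 4 in the added fit, and from 1 to 2 leaving out 1 library. The interaction went from 3 to 5 by adjusted p alone.

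Genes called in all, in the order hemin in control, hemin in KO, vehicle, hemin between genotypes and interaction, were 1033, 1648, 866, 766 and 654. They were 6359, 7694, 4362, 4383 and 3031 by adjusted p alone, 629, 1043, 392, 422 and 334 at a mean FPKM of at least 5, 1864, 3101, 1491, 1184 and 984 in TPM, 1817, 2850, 1473, 1262 and 1153 in TPM without the most abundant gene, and 2774, 4187, 2450, 2207 and 1369 in the added fit. With limma-voom the first 4 were 1830, 2605, 1304 and 1399, and with a pseudocount of 0.1 hemin in control had 1760 and the genotypes under hemin 1342. The median gene lay at -0.18, -0.31 and 0.15 in TPM in the first 3 comparisons and at -0.12 in the interaction, against -0.01, -0.0019, 0.02 and 0.02 in FPKM. The cause of these shifts was not tested.

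Pairing by replicate number was looked for in the deviations of each library from its group mean, not in the expression profiles themselves. These deviations correlated at -0.33 to 0.18 between same-numbered libraries of different groups. The mean was -0.04, against 0.02 for other pairs, and 2 of 12 libraries correlated best with their own number. No pairing was seen, but with 3 libraries per group this check cannot exclude it. With a replicate block 3 members were called with hemin in KO, and the interactions of *Ptges3* (adjusted p = 0.055) and *Ptger4* (adjusted p = 0.050) missed the threshold. Depth limits *Ptgs1* and *Ptges*, with 0 to 57 fragments per library.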
